A study of Equus caballus with 2 samples.

Results

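The CpGs described here are called open sea. They lie in stretches of the horse genome with few CpGs listed in the deposited files, far from any stretch with many listed. Of 877053 CpGs covered by at least 10 reads in both libraries, 94821 (10.8%) in 33884 tiles of 1 kb met the definition. A tile was CpG-poor when the deposited files listed 5 or fewer CpGs in it, dense when they listed over 20, and open sea when no dense tile lay within 50 tiles on either side. Members were also selected on a measured value, since tiles at 20% methylation or less in skin were left out. The sarcoid, a fibroblastic tumour of equine skin, is associated with bovine papillomavirus. The groups were 1 library of tumour tissue and 1 library of tumour-distant skin, both labelled horse 1, with no treatment, age or share of tumour cells in the labels. Both were made by reduced representation bisulfite sequencing (RRBS), in which MspI cuts DNA at its recognition sites and bisulfite turns unmethylated cytosines into bases read as T. With 1 library per tissue there were no replicates, and every difference below describes these libraries and not the tissues in general.

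In mammals most CpGs outside CpG islands carry methylation, which DNMT1 copies to the new strand after replication and which DNMT3A and DNMT3B place afresh. CpG islands and the regulatory elements around them are mostly kept free of it. Open-sea CpGs lie away from both, in gene bodies, between genes and in repeats, and a partial loss of methylation there is a familiar feature of many tumours. RRBS reaches few of these sites, because it keeps short fragments between MspI sites. Few listed CpGs in a tile thus mean few CpGs in sequenced fragments, which need not mean few CpGs in the DNA. No genome of the build of the files was used here, so no sequence is printed and no gene is named.

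The files listed 175582 CpGs in 59609 open-sea tiles before any limit on reads or level. Of these 140749 were listed in both libraries, 20327 in skin only and 14506 in the sarcoid only. At least 10 reads in both were present at 103534, and 8713 of them, in 3230 tiles, were left out for a low level in skin. Median coverage of the members was 32 reads in skin (quartiles 21 and 47) and 26 in the sarcoid (17 and 40). Over all CpGs the skin library held 48650606 reads over cytosines and the sarcoid library 35970547.

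Open-sea CpGs were mostly methylated in both tissues and slightly less so in the sarcoid. In skin the mean level was 66.3% and the median 74.6%, with quartiles of 45.7% and 90.3%. In the sarcoid the mean was 64.2% and the median 71.9%, with quartiles of 40% and 91.7%. The mean difference, sarcoid minus skin, was -2.06 points. It was below 0 on 31 of 31 chromosomes, whose values had a standard deviation of 0.681 points. The chromosomes share the same libraries and the same limit on skin level, so they are not replicates. The sarcoid level was the lower at 49.2% of members, the higher at 46.0% and equal at 4.88%, so the median difference was 0. Over all 877053 CpGs the means were 43.9% and 42.7%, a difference of -1.28 points.

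The size of that difference depended on how members were chosen. The level limit used skin, which is also 1 of the libraries compared, so the difference is a description and carries no test. The 8713 CpGs left out had means of 7.26% in skin and 9.91% in the sarcoid. With them the difference was -1.66 points. It was -1.65 points with the limit set on the mean of both libraries and -0.795 with the limit set on the sarcoid in place of skin. The direction was thus the same whichever library set the limit, while the size was not. Where plus-strand skin reads set the limit and minus-strand reads gave the difference, it was -1.53 points over 17155 CpGs, and -1.63 points over 17193 with the strands exchanged. Next to the limit, 816 tiles above it, at over 20% and up to 25% in skin, had CpG means of 22.7% in skin and 29.5% in the sarcoid. The 684 tiles just below, at over 15% and up to 20%, had 17.6% and 22.7%. The 5 tiles nearest above the limit were at 20.1% to 20.2% in skin and 15.5% to 45.8% in the sarcoid. Of the tiles left out, 56 stood at exactly 20% in skin, and they were at 0% to 91.7% in the sarcoid with a median of 30.2%.

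Among the members more CpGs had low methylation in the sarcoid and fewer had high but incomplete methylation, with the low end set in part by the limit on skin level. Levels at or under 20% were found at 7.89% of members in skin and 11.1% in the sarcoid, and levels over 80% at 42.8% and 42.1%. Since the sarcoid was covered less deeply, levels were also set out at an equal depth, as the expected share of CpGs with each number of methylated reads when 10 reads are drawn from each CpG without return. At that depth, 0 to 2 methylated reads were expected at 12.0% of members in skin and 15.5% in the sarcoid. Counts of 7 to 9 were expected at 40.5% and 35.9%, and 3 to 6 at 29.0% and 28.5%. All 10 reads methylated were expected at 18.5% in skin and 20.1% in the sarcoid. With no limit on skin level, over 103534 CpGs, the shares with 0 to 2 methylated reads were 18.7% in skin and 21.4% in the sarcoid. Those with 7 to 9 were then 37.1% and 33.1%, and those with 10 were 17.0% and 18.4%. The 8713 CpGs left out went the other way at the low end, with 91.3% at 0 to 2 reads in skin and 85.3% in the sarcoid. The standard deviation of the level over members was 28.1 points in skin and 30.2 in the sarcoid.

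**Figure D1:**
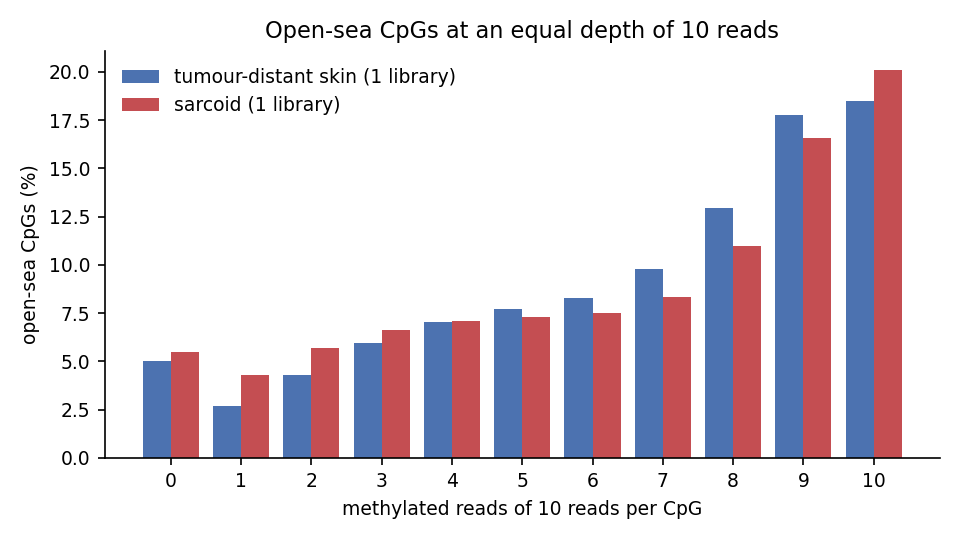
Share of the 94821 open-sea CpGs (vertical axis, percent) by the number of methylated reads expected among 10 (horizontal axis), in skin (blue) and sarcoid (red), 1 library each and no error bars. The sarcoid bars are higher at 0 to 3 and at 10 methylated reads and lower at 5 to 9.

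Most members stayed in 1 class of level. Over 80% in both libraries were 32.7% of members, and at or under 20% in both were 5.72%. A move from over 80% in skin to 20% or less in the sarcoid was seen at 154 CpGs, and a move from 20% or less to over 80% at 13. The limit on skin level removed starting points for the second kind of move: 17 more of these CpGs lay in the tiles left out. The standard deviation of the difference over members was 18.9 points. Counting of independent reads, at the pooled level and coverage of each CpG, would give 11.0, but reads can be PCR copies and are then not independent. The sarcoid was lower by 25 points or more at 10684 members (11.3%) and higher by that much at 6111 (6.44%).

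Fewer of these differences passed a test on reads. By Fisher's exact test between the libraries, with q adjusted over all 877053 CpGs and called at q below 0.01 with 25 points or more, 2253 members (2.38%) were lower in the sarcoid and 871 (0.919%) higher. Over all CpGs tested, 1.89% were called lower and 0.954% higher. Members were chosen by the skin level that enters this comparison, so nothing is read from the gap between these shares. Calls were more frequent at greater depth. Where the shallower library had 10 to 14 reads, 0.671% of members were called lower and 0.143% higher, and where it had at least 50 reads, 8.25% and 3.35%. Shares over all CpGs tested at these depths are not given, and the 1.89% and 0.954% above are over all depths. The mean difference was -2.07 points in the first of these classes and -2.94 in the second. In the authors' deposited table of chromosome 1, with its own q-values and the same limits, 142 of 8659 members were lower in the sarcoid and 76 higher, or 2.52% of members against 1.45% of the whole table. That table was made from the same reads, and its CpGs were not limited by skin level, so nothing is read from this gap either.

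The difference was larger the fewer CpGs a tile listed. Members alone in their tile (4311 CpGs) had a mean of 69.8% in skin and 65.6% in the sarcoid, a difference of -4.22 points, lower on 31 of 31 chromosomes. In tiles with 2 listed CpGs the difference was -2.96 points, with 3 it was -2.27 and with 4 it was -1.77. In tiles with 5 it was -1.36 points, from 69.2% to 67.9%, and lower on 28 chromosomes. Skin means in the other classes were 62.6% at 2 listed CpGs, 63.8% at 3 and 66.7% at 4. Without the limit on skin level the differences were -3.19, -2.38, -1.84, -1.43 and -1.12 points from 1 to 5 listed CpGs. The share called lower was 2.78% at 1 listed CpG and 2.29% at 5, and the share called higher was 0.765% and 1.08%. Over all CpGs tested, in tiles with any number of listed CpGs, 1.89% were called lower and 0.954% higher. CpG-poor tiles with a dense tile within 50 tiles, chosen by the same limits, showed the same order. Their differences were -4.51, -3.55, -2.90, -2.88 and -2.51 points from 1 to 5 listed CpGs. The trend was thus not particular to the open sea. No test of the trend was made, since there is 1 library of each tissue.

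Strand and coverage moved along with the number of listed CpGs. Reads on 1 strand only, the same in both libraries, were present at 85.7% of members alone in their tile and at 35.1% in tiles with 5. Among members read on 1 strand the differences from 1 to 5 listed CpGs were -4.13, -3.17, -2.58, -1.85 and -2.05 points. Among those read on both strands in both libraries they were -2.48 (517 CpGs), -2.43, -1.84, -1.70 and -0.915 points. Among members the difference was larger at 1 listed CpG than at 5 within either kind of coverage. These splits are given only with the limit on skin level. Over all strands that limit moved the difference from -3.19 to -4.22 points at 1 listed CpG and from -1.12 to -1.36 at 5. How much of the trend goes with strand or with the limit was not tested. Median coverage of members alone in their tile was 33 reads in skin and 21 in the sarcoid, against 33 and 29 in tiles with 5. Where the libraries covered a CpG about equally, at a ratio of sarcoid to skin reads from 0.8 to 1.25, the difference was -6.36 points at 823 CpGs alone in their tile and -2.15 at 5863 in tiles with 5. At a ratio under 0.5 these values were -1.46 points (1285 CpGs) and -0.648 (5203), and at 2 or more they were -9.23 (163) and -1.12 (2899), so their size depended on the ratio.

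Beyond 50 tiles the distance to the nearest dense tile made little difference to these values. Members 51 to 75 tiles away differed by -2.21 points, those at 76 to 100 by -1.77 and those at 101 to 200 by -2.12. At 201 to 500 tiles the difference was -2.08 points, at 501 to 1000 it was -1.88 and beyond 1000 it was -2.08, over 3949 CpGs. Skin levels in these classes lay between 66.0% and 66.6%. The remotest members were on chromosome 26, where a tile from 6669001 to 6670000 was 6253 tiles from any dense tile. It had 74.8% in skin and 71.0% in the sarcoid over 3 CpGs. Its neighbour from 6667001 to 6668000 went from 74.8% to 67.9% over 5 CpGs, and a tile from 7226001 to 7227000 from 44.4% to 34.5% over 2. None of the CpGs in these 3 tiles was called.

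CpG-poor tiles nearer to dense ones, chosen by the same limits but with a dense tile within 50, had a larger mean difference. Their 79340 CpGs had means of 65.4% in skin and 62.5% in the sarcoid, a difference of -2.91 points against -2.06 in the open sea. The difference was -3.24 points within 5 tiles of a dense tile and -2.65 at 36 to 50 tiles. Without the limit on skin level these values were -2.29 and -2.11 points, and the lowest class was 6 to 10 tiles away, at -2.57. All nearer CpGs then differed by -2.32 points and the open sea by -1.66. The nearer set was the lower one on 22 of 31 chromosomes, and on 9 the open sea was. The gap between the sets had a mean of 0.659 points over chromosomes and a standard deviation of 1.02. No test of it was made.

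**Figure D2:**
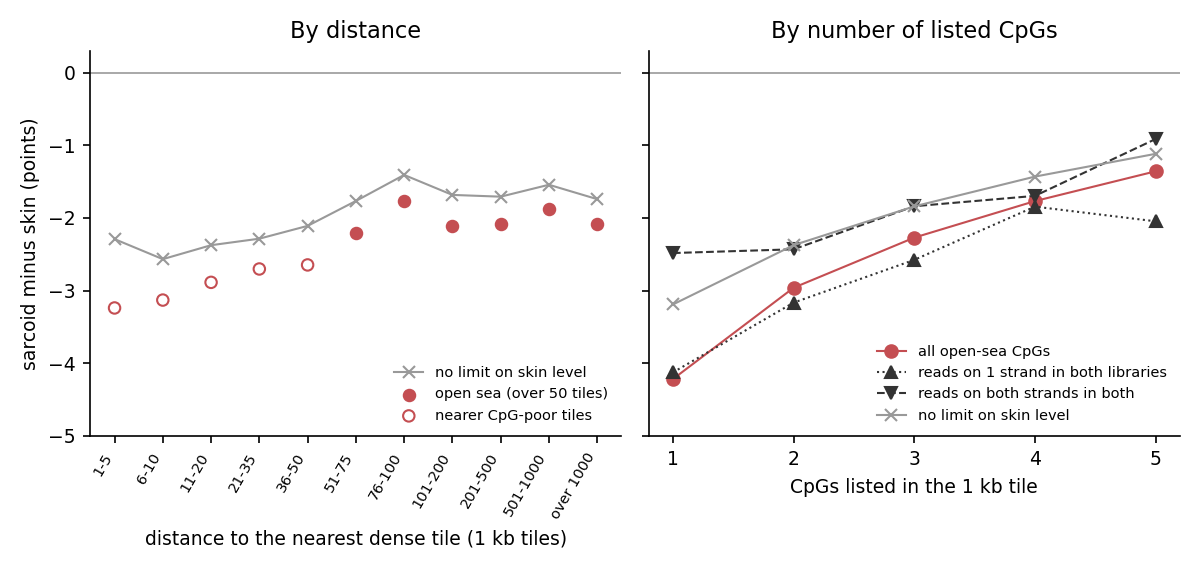
Mean difference, sarcoid minus skin in percentage points (vertical axis), by distance to the nearest dense tile (left) and by number of CpGs listed in the tile (right); filled circles are open-sea CpGs, open circles nearer CpG-poor CpGs, crosses CpGs with no limit on skin level, and triangles open-sea CpGs read on 1 strand (up) or both strands (down), each a mean over CpGs. On the left the open-sea classes lie between -2.21 and -1.77 points and the nearer classes between -3.24 and -2.65, and on the right the difference goes from -4.22 points at 1 listed CpG to -1.36 at 5.

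Among members, which were chosen by skin level, the difference was below 0 on every chromosome and varied in size. The number of chromosomes below 0 without that limit is not given here. Chromosome means of the members were 65.1% to 68.4% in skin and 62.6% to 65.9% in the sarcoid. The largest differences were -3.46 points on chromosome 27 (1351 members), -3.31 on chromosome 25 (2211) and -3.26 on chromosome 19 (1719). The smallest were -0.819 points on chromosome 9 (2781 members), -1.23 on chromosome 29 (1578) and -1.24 on chromosome 8 (4851). Chromosomes 5, 6, 7, 12, 18, 21, 22, 25, 28 and 29 had deeper sarcoid coverage than the rest, by 0.217 to 0.318 on a log2 scale above the median chromosome, against -0.114 to 0.124 on the other 21. Open-sea CpGs of those 10 differed by -2.34 points and those of the other 21 by -1.94. The standard deviation over chromosomes was 0.654 points within the 10 and 0.693 within the 21, and the difference between the sets was not tested. Calls among members were more frequent on the 10, at 3.37% lower and 1.25% higher against 1.96% and 0.781%. Shares over all CpGs of these chromosomes are not given, so nothing here is particular to the open sea. Calls depend on depth, the mean difference was also larger on the 10, and the part of each was not tested.

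**Figure D3:**
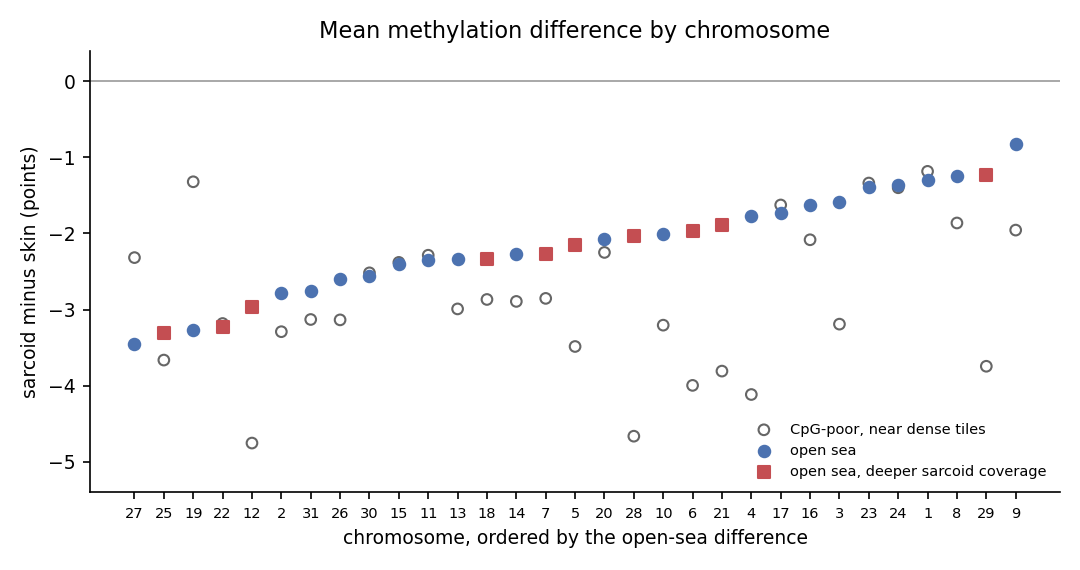
Mean difference of open-sea CpGs per chromosome (filled marks; blue circles, with red squares for the 10 chromosomes of deeper sarcoid coverage) and of CpG-poor CpGs nearer to dense tiles (open circles), in percentage points. All 31 open-sea values are below 0, from -3.46 to -0.819, and the red squares lie among the blue circles.

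Differences were shared by neighbouring CpGs within 300 bp and hardly beyond. Between consecutive members 2 to 10 bp apart, the difference had a correlation of 0.526 over 14867 pairs. It was 0.374 at 26 to 50 bp (18187 pairs) and 0.201 at 51 to 75 bp (8425 pairs). At 301 to 1000 bp it was 0.0262 over 1088 pairs, and at 1001 to 10000 bp 0.00591 over 9761 pairs. The level in skin had a correlation of 0.337 at 2 to 10 bp, 0.0461 at 51 to 75 bp, 0.449 at 76 to 150 bp and 0.0113 at 301 to 1000 bp. Pairs within 75 bp can lie on the same reads of 75 bp, and CpGs of 1 tile passed the level limit together, so the pairs are not independent. Between 76 and 300 bp pairs were few, at 876 and 176, with correlations of 0.224 and 0.359.

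Calls clustered in the same way. After a member called lower, the next was also called lower in 117 of 320 pairs (36.6%) at 2 to 10 bp and in 40 of 222 (18.0%) at 51 to 75 bp. At 1001 to 10000 bp this held for 5 of 250 (2%), near the 2.38% of all members. After a member called higher, the next was called higher in 56 of 171 pairs (32.7%) at 2 to 10 bp and in 0 of 64 at 1001 to 10000 bp.

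**Figure D4:**
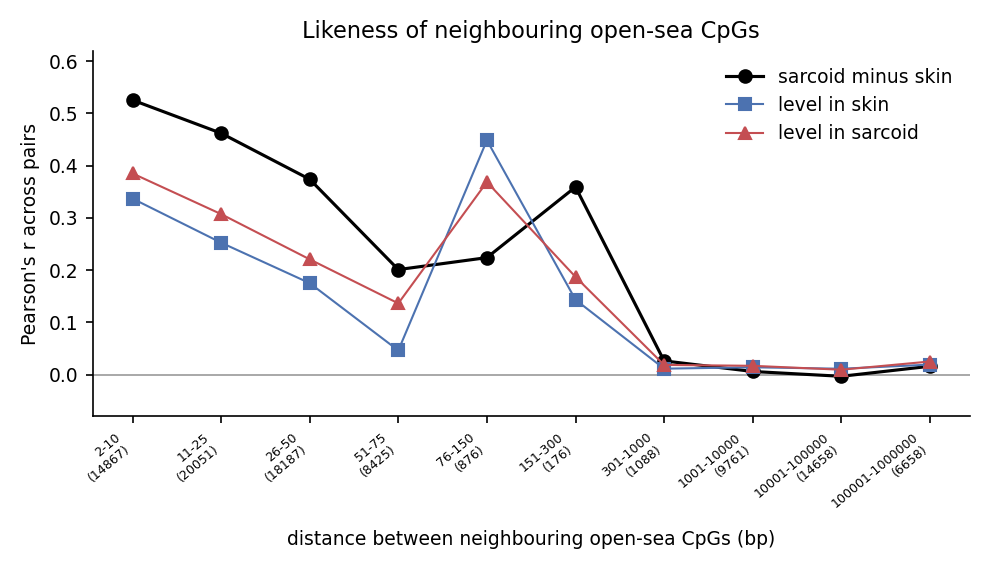
Pearson's correlation across pairs of consecutive open-sea CpGs (vertical axis) by their distance in bp (horizontal axis, pairs in brackets), for the difference (black), the level in skin (blue) and the level in sarcoid (red). The black line falls from 0.526 to 0.201 within 75 bp, stands at 0.359 in the class of 176 pairs that ends at 300 bp and lies near 0 from 301 bp on.

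The strands of a CpG gave separate sets of reads for the same site. At 17425 members with 10 reads on each strand in both libraries, the mean difference was -1.66 points from the plus strand and -1.54 from the minus strand. The difference of 1 strand had a correlation of 0.451 with that of the other. Both strands were lower at 3779 of these CpGs (21.7%) and both higher at 3294 (18.9%). Mean levels of the plus and minus strands were alike, at 63.8% and 63.5% in skin and 62.1% and 62.0% in the sarcoid. The strands of a single CpG often differed. They lay 30 points or more apart at 39.6% of these CpGs in skin and at 38.0% in the sarcoid. The share that counting of reads alone would give was not computed. Members read on 1 strand in both libraries (46823 CpGs) had means of 69.7% and 67.1%, and those read on both strands in both (38438 CpGs) had 63.1% and 61.6%.

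Coverage and level were linked across members. Where the sarcoid had under 0.5 times the reads of skin (19237 CpGs), means were 73.6% in skin and 73.0% in the sarcoid. Where it had 2 times the reads or more (9810 CpGs), they were 57.4% and 54.9%. Levels weighted by reads therefore gave a difference of -5.57 points, against -2.06 for the mean over CpGs. With every tile counted once it was -2.52 points.

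Tiles with several members were compared by their summed reads. Of 18891 open-sea tiles with at least 3 members, 935 (4.95%) were called lower and 506 (2.68%) higher than in skin, by Fisher's exact test adjusted over the 103512 tiles of the genome with 3 CpGs. Over those tiles 4.1% were called lower and 2.28% higher. The open-sea tiles were chosen by skin level and the tiles of the genome were not, so nothing is read from this gap. Every member was lower in 2585 of the 18891 tiles (13.7%) and higher in 2193 (11.6%). Reads that cross several CpGs enter a sum several times, and PCR copies cannot be told from separate molecules. The Wilson 95% intervals below therefore cover counting error only and are too narrow, and q-values of tiles are too small.

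The tiles with the largest falls were at 70.1% to 93.3% in skin and at 0% to 22.9% in the sarcoid. On chromosome 28 from 39902001 to 39903000, the 5 CpGs at 39902090, 39902110, 39902141, 39902149 and 39902165 were methylated in 9, 9, 8, 8 and 7 of 10 reads in skin. In the sarcoid they were methylated in 1, 0, 0, 0 and 0 of 12 reads. The tile went from 82% (interval 69.2 to 90.2) to 1.67% (0.295 to 8.86; q = 2.21e-18), and all reads were on the minus strand. On chromosome 22 from 37260001 to 37261000, 0 of 74 reads were methylated over 5 CpGs in the sarcoid, with an interval of 0 to 4.93. These were 10 reads at 1 CpG and 16 at each of the other 4. At a single CpG, 0 methylated of 16 reads still allows a level of up to 18.8%, taken as 3 counts over 16 reads. At the CpG with 10 reads that limit is higher. In skin 70.1% (59.2 to 79.2) of 77 reads were methylated. The other falls named by the rule were a tile of chromosome 14 from 26515001 to 26516000 (83.9% to 10%), one of chromosome 19 from 2836001 to 2837000 (87.8% to 14.1%) and one of chromosome 4 from 14164001 to 14165000 (93.3% to 22.9%).

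The largest rises among tiles over 20% in skin started from 22% to 36.1% and reached 84.1% or more. Of 1679 left-out tiles with at least 3 CpGs, 64 were called higher, by at most 52.8 points, against 56.2 for the smallest rise named here. On chromosome 8 from 31553001 to 31554000, 5 CpGs within 38 bp were methylated in 6 or 7 of 30 reads in skin and in 9 of 10 reads in the sarcoid. That tile rose from 22% (16.1 to 29.3) to 90% (78.6 to 95.7; q = 2.73e-16), although only 2 of its CpGs were called singly. On chromosome 20 from 38308001 to 38309000 the level rose from 28.2% to 93.3% over 3 CpGs, of which 0 were called singly. Rises were also named on chromosome 22 from 41200001 to 41201000 (29.9% to 90.3%), chromosome 1 from 92719001 to 92720000 (36.1% to 93.8%) and chromosome 1 from 184604001 to 184605000 (27.9% to 84.1%). In each of the 10 tiles all CpGs moved the same way, and they spanned 19 to 99 bp. Each CpG had 10 to 48 reads in a library. Most of these tiles were read on 1 strand, where CpGs so close can lie on the same reads, so their CpGs are not separate measurements. In the tile of chromosome 22 from 41200001, CpGs at 41200819 and 41200917 were read on opposite strands, and the level was higher in the sarcoid on both.

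**Figure D5:**
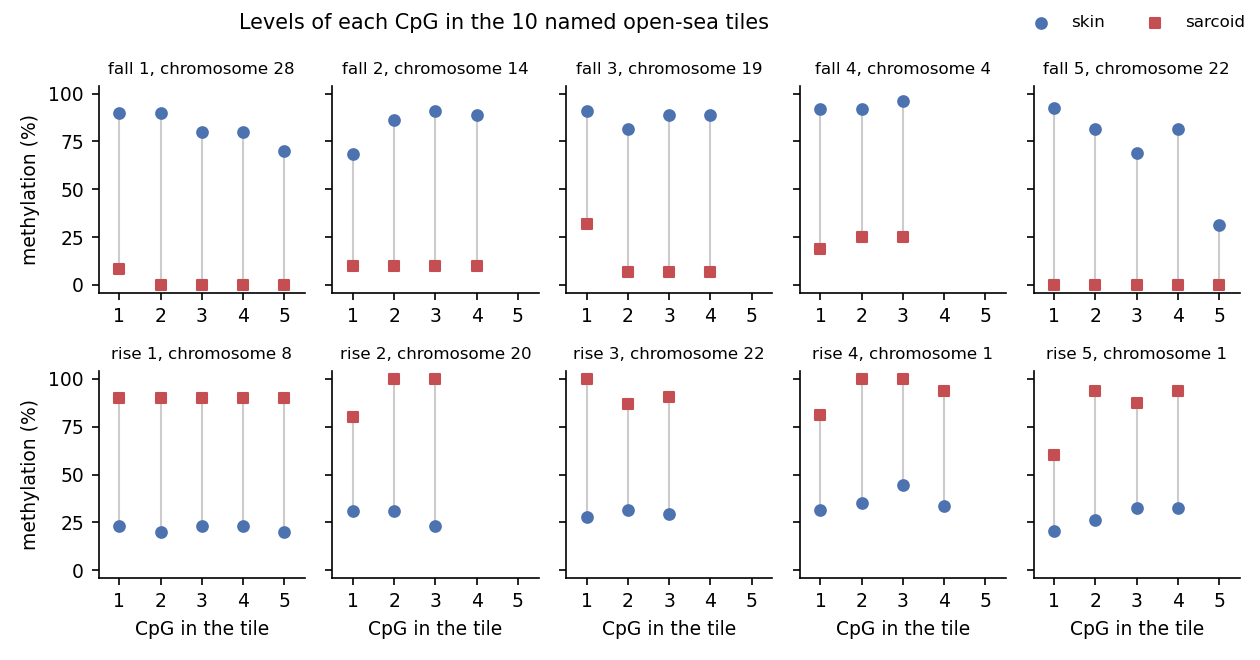
Methylation level in percent (vertical axis) of each tested CpG, in order along the tile, in the 5 open-sea tiles with the largest fall (top) and the 5 with the largest rise (bottom), for skin (blue circles) and sarcoid (red squares), 1 library each. Grey lines join the levels of a CpG, and no CpG of these tiles moves against its tile.

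On the scale of a megabase, windows varied around a small negative difference. Of 1604 windows of 1 Mb with at least 20 members, 1104 (68.8%) were lower in the sarcoid. The median window differed by -1.91 points, and the 5% and 95% quantiles were -8.26 and 4.79. The standard deviation over windows was 4.48 points in 768 windows with under 15 tiles and 3.13 in 294 with 30 or more, so windows of few tiles varied more. Adjacent windows had a correlation of 0.0655 in their differences over 1241 pairs. The sarcoid was lower by more than 10 points in 37 windows and higher by more than 10 in 8.

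The window with the lowest difference had 33 tiles behind it. The others of the 5 lowest had 6 to 20, and the 5 highest had 5 to 10. On chromosome 25 from 36000001 to 37000000, the mean of 97 members in 33 tiles was 67.0% in skin and 50.1% in the sarcoid. In that window 28 tiles were lower and 5 higher, with 14 CpGs called lower and 0 higher. On chromosome 22 from 37000001 to 38000000, which holds the tile named above, 59 members went from 72.5% to 56.9%, with 12 tiles lower and 8 higher and 10 CpGs called, all of them lower. Windows on chromosome 27 from 16000001 to 17000000 (59.7% to 44.4%, 7 tiles), chromosome 11 from 25000001 to 26000000 (57.3% to 42.3%, 20 tiles) and chromosome 6 from 67000001 to 68000000 (63.8% to 49.1%, 6 tiles) followed. The highest was on chromosome 21 from 16000001 to 17000000, where 25 members in 10 tiles went from 57.5% to 71.4% with 0 CpGs called. Next were windows on chromosome 6 from 13000001 to 14000000 (61.1% to 72.7%, 9 tiles) and chromosome 9 from 39000001 to 40000000 (52.8% to 64.3%, 5 tiles). They were followed by chromosome 28 from 7000001 to 8000000 (56.4% to 67.9%, 10 tiles) and chromosome 2 from 118000001 to 119000000 (56.5% to 67.5%, 9 tiles).

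Values are given for 3 further windows, chosen from earlier results of these data. On chromosome 6 from 7000001 to 8000000, 171 members went from 63.1% to 50.7%, lower in 43 tiles and higher in 18. On chromosome 4 from 58000001 to 59000000, 35 members went from 66.4% to 56.2%. On chromosome 13 from 4000001 to 5000000, 75 members went from 64.6% to 62.9%, close to the median window.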

How the data were processed

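Genomic DNA of 1 tumour-distant skin and 1 sarcoid sample was sequenced by RRBS with reads of 75 bp, per the labels' protocols. FastQC, BSMAP and methylKit are named in the submitters' processing notes, with versions, settings and genome build not given in the sources used here. Per the file headers, the deposited files give a read count (coverage) for each cytosine and strand and the percent of reads with C. The authors also deposited a table of chromosome 1 with p-values, q-values and a methylation difference per CpG, a score in points, here read as skin minus sarcoid.

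The number of methylated reads was rebuilt as the rounded product of coverage and percent, and strands were summed. CpGs with 10 reads in both libraries were compared by Fisher's exact test (two-sided) and Benjamini-Hochberg adjustment over the genome. This test compares 2 libraries, not conditions. The test was tried on simulated independent reads and the rule on a made-up chromosome. Reads of these data need not be independent, so this checked the code and not how reliable the calls are. Means are over CpGs. The level of a tile is its methylated reads over all reads of its tested CpGs. The shares at 10 reads are hypergeometric expectations. 

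Tiles named were the 5 largest falls and 5 largest rises among called tiles, the windows the 5 lowest and 5 highest, the chromosomes the 3 largest and 3 smallest, the remotest tiles 3. Next to the level limit the 5 tiles above are given as a range, as are all tiles at the limit, since ties left no 5 nearest below. Members and rules were chosen with earlier results of these data known. The 10 chromosomes of deeper sarcoid coverage are those over 0.2 (log2) above the median. Scripts used SciPy 1.17.1, NumPy 2.4.6, pandas 2.3.3, matplotlib 3.10.9 and numba 0.67.0 under Python 3.11.15.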

Additional observations from a re-analysis of the deposited data

How the results depend on the processing

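The open-sea difference stayed below 0 in every alternative run. Against -2.06 points it was -0.795 with the level limit on the sarcoid, -1.65 with the limit on the mean of both libraries and -1.66 with no limit. It was -2.18 with dense tiles kept out within 25 tiles and -1.80 with dense tiles defined by over 10 listed CpGs. With 10 reads on each strand it was -1.61, and -1.74 where strands also lay less than 30 points apart. On the other 21 chromosomes, leaving out those covered more deeply in the sarcoid, it was -1.94. It was -5.57 weighted by reads and -2.52 with each tile counted once. Alternatives chosen after seeing the data gave -2.57 at CpGs read on 1 and the same strand. At CpGs with 10 reads on each strand they gave -1.53 and -1.63 where 1 strand set the limit and the other gave the difference.

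The nearer CpG-poor CpGs, at -2.91 points, differed by -3.05 at a minimum of 20 reads, -1.47 with the limit on the sarcoid, -2.40 on the mean of both and -2.32 with none. They differed by -2.71 with dense tiles over 10, -2.42 with 10 reads on each strand, -2.41 with strands less than 30 points apart, -2.48 without the deeper chromosomes and -3.30 on 1 strand.

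Calls lower and higher, 2253 and 871 (2.38% and 0.919% of members), changed by over 1.5 times with the number of CpGs or the threshold. Dense tiles over 10 gave 1082 and 471 (2.15% and 0.938% of 50214 CpGs). Without the deeper chromosomes there were 1185 and 466 (1.77% and 0.695% of 67065). On 1 strand there were 1040 and 358 (2.23% and 0.769% of 46584). With 10 reads on each strand there were 599 and 269, and with strands less than 30 points apart 513 and 224. At q below 0.05 there were 4067 and 1786 (4.29% and 1.88%). The shares called were larger with 10 reads on each strand, at 3.45% lower and 1.55% higher of 17387 CpGs, than among all members (2.38% and 0.919%). With strands less than 30 points apart they were 5.08% and 2.22% of 10102. A CpG with 10 reads on each strand also has at least 20 reads. A minimum of 20 reads, with no limit per strand, gave 3.87% and 1.63% of 53170 CpGs, so these shares do not set strand apart from depth. Shares over all CpGs tested were not computed under these settings. The 10 named tiles were called wherever they had a value (29 of 29). That was with a minimum of 5 reads, without the 0.1% of most coverage and, for 9 of them, on 1 strand. With a minimum of 5 reads and without the most coverage, their differences equalled those of the main run. On 1 strand only the tiles of chromosomes 14 and 19 changed in value. Nearly the same reads were thus tested again, so the kept calls give no separate support. None of the 10 had 3 CpGs left at 20 reads or with 10 reads on each strand.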
